A study of Mus musculus with 96 samples.

Results

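Hepatocyte chromatin was compared by ATAC-seq between mice fasted for 8 h and mice fed throughout. The comparison took the 4 fasted and the 4 fed libraries labelled 8 h, which are 8 of the 32 hepatocyte libraries and of the 96 libraries of the series, over all 46832 listed hepatocyte peaks. The 8 h fasted group held 4 female HEP-INTACT mice whose food was withdrawn at ZT12, the start of the dark phase in which mice eat, and that were taken at ZT20. The 8 h fed group held 4 female HEP-INTACT mice with free access to food that were taken at the same hour, so that time of day does not differ between the groups. In HEP-INTACT mice the nuclei of hepatocytes carry a tag and are pulled down on beads from the whole liver (INTACT). The age of the mice and the promoter that drives the tag are not given in the labels, and the mouse was the unit of replication. The labels give no other genotype or agent. Groups of 4 fasted mice taken after 3 h and 16 h, each with its own 4 fed mice, served for 2 further comparisons. The 4 fasted and 4 fed mice taken after 24 h entered the values by time, the fit over all 8 hepatocyte groups and the set of 16 fed mice.

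ATAC-seq counts the fragments that a transposase cuts from DNA free of tightly packed nucleosomes, so that more reads at a site mean more open chromatin. In a fasting liver, falling insulin releases FOXO factors into the nucleus, glucagon acts through CREB, glucocorticoids through their receptor, and fatty acids from fat tissue are ligands of PPAR alpha. Between them these factors drive glucose output, fatty acid oxidation and ketone production, while the insulin-driven SREBP factors of fat and sterol synthesis lose activity. All of this is background and not a result of these data.

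A peak is 200 bp wide and is named by the gene whose transcription start site (TSS) lies nearest in the deposited annotation, which does not show that it acts on that gene. Levels are normalized reads, 1 value per mouse. Log2 fold changes are fasted over fed with an offset of 2 normalized reads, ± SE, from limma across all tested peaks, so they understate changes of peaks near 0. A peak "opened" or "closed" where the adjusted p was under 0.05, and it "did not overlap" where all 4 fasted mice lay on one side of all 4 fed mice. Fewer nuclei with an open site and a less open site in each nucleus cannot be told apart.

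Reads in peaks numbered 2458156 to 5816809 in the 8 h fasted libraries and 3534152 to 5359367 in the 8 h fed libraries. Mean correlations of a mouse with the others of its group, on the log2 scale across peaks, ran from 0.911 to 0.930 in fasted and from 0.943 to 0.954 in fed mice, against 0.751 to 0.833 for pairs of 1 fasted and 1 fed mouse. The shallowest library was that of fasted mouse 2. Among the lists of cell markers, hepatocyte genes such as Alb and Hnf4a had 100 tested peaks near 9 of 10 genes, 14 of them opened and 22 closed. Markers of Kupffer cells, sinusoidal endothelial cells, stellate cells, cholangiocytes, lymphocytes and monocytes or neutrophils had 1, 6, 1, 3, 0 and 5 tested peaks. Clec4f, Vsig4, Krt19, Epcam, Dcn and Cd3e, among other defining markers, had no tested peak. The 3 cholangiocyte peaks summed to 74.1 to 85.4 normalized reads in fasted mice and 123.9 to 133 in fed mice, 2 of them closed peaks at Spp1, the gene of osteopontin. Of the 6 endothelial peaks, 1 each at Lyve1 and Pecam1 was closed and 1 at Stab2 opened, with sums of 214 to 292 in fasted and 285 to 299 in fed mice. The part of either list in the results was not tested. For the lists other than that of cholangiocytes the summed levels of fasted and fed mice overlapped.

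After 8 h, 9512 of 46827 tested peaks were opened and 6425 closed, which is 20.3% and 13.7% of all tested. Opened peaks had a median log2 fold change of 0.63 and closed peaks of -0.77, and 1958 opened and 2013 closed peaks changed at least 2-fold. Among the opened peaks 7205 did not overlap between fasted and fed mice, and among the closed peaks 5167, where 30.9% of all tested peaks did not overlap in either direction. The balance of the directions depended on the scaling. Fasted libraries had median normalized reads per peak of 54.0 to 56.6 and fed libraries of 51.8 to 52.3, and over all tested peaks the fold change had a median of 0.08 on the log2 scale. With each library centred on its median, 6905 peaks were opened (14.7%) and 7980 closed (17%), so that the share of opened among called peaks was 46.4% in place of 59.7%. This share was 48.3% after quantile normalization, 49.3% in edgeR and 47.8% in DESeq2 on the recovered reads. Centring lowered the 8 h log2 fold change of every peak by the same amount, so closed peaks could only move further from 0. That each of the 6425 closed peaks stayed closed is therefore no test of their calls. Of the 9512 opened peaks 6905 stayed opened, and 0 of either direction turned round. The authors' deposited table has 8347 peaks opened and 6007 closed at an adjusted p under 0.05, and 96.3% and 97.4% of these were also called here in the same direction, with 0 called in opposite directions. Of the peaks opened and closed here, 84.5% and 91.0% were also called in the authors' table, which rests on the same reads.

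By their medians, closed peaks stood under the median peak in both groups, and more so in fasted mice. Opened peaks stood under it in fed mice. Peaks were called by their change, so this follows in part from the choice. Peaks closed at least 2-fold had a median level of 16.0 normalized reads in fasted and 44.6 in fed mice. Peaks opened at least 2-fold had a median of 57.0 in fasted and 20.1 in fed mice. The median peak stood at 55.2 in fasted and 52.0 in fed mice. Fed mice of the other times place these changes against the daily rhythm. In 1184 of the 1958 peaks opened at least 2-fold (60.5%), all 4 fasted mice lay above all 16 fed mice of the 4 times, and in 1346 of the 2013 peaks closed at least 2-fold (66.9%) they lay below all 16. Among all opened peaks this held for 3134 of 9512 (32.9%) and among all closed peaks for 2445 of 6425 (38.1%), where 7.10% of all tested peaks had the fasted mice above and 5.35% below all 16. The 16 include the 4 fed mice of 8 h by which peaks were called. The higher shares among called peaks follow in part from that choice.

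Closing was rare at promoters. Of 16351 tested peaks within 1 kb of a TSS, 3112 were opened (19.03%) and 692 closed (4.23%). Of 10159 peaks at 5 to 20 kb, 2146 were opened (21.1%) and 1844 closed (18.2%). In the 3111 peaks over 100 kb from a TSS the order was turned, with 552 opened (17.7%) and 748 closed (24.0%). Centring took the promoter peaks to 1841 opened and 1046 closed, and the peaks at 5 to 20 kb to 1689 opened and 2252 closed, so the low share of closed promoter peaks was there on both scales. Large changes at promoters were few in either direction, with 195 peaks opened and 106 closed at least 2-fold. By the deposited annotation, introns held 3714 opened and 3138 closed of 17612 peaks and intergenic sites 2822 opened and 2297 closed of 12859.

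**Figure D1:**
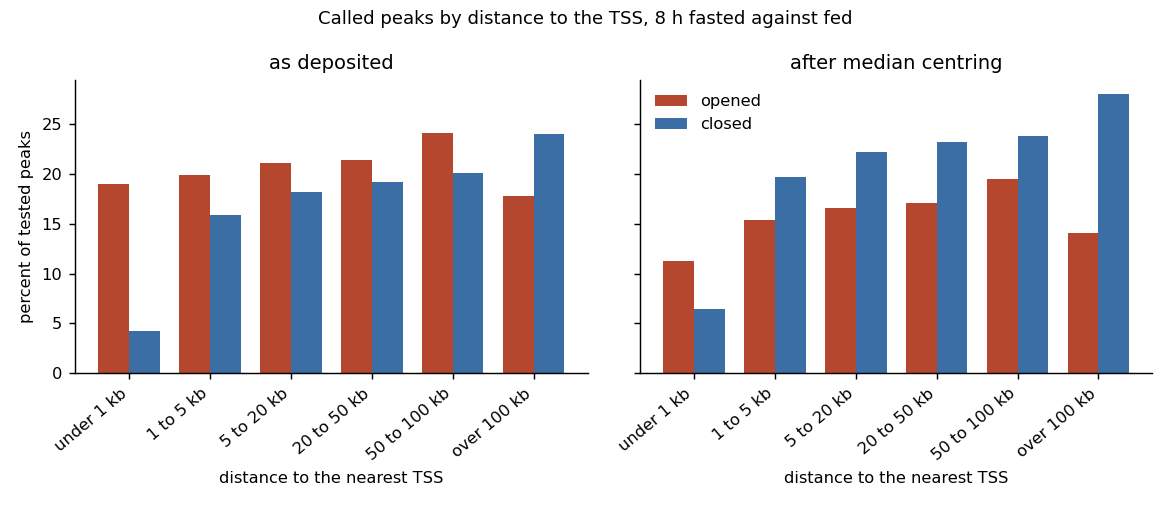
Percent of tested hepatocyte peaks opened (red) and closed (blue) in 8 h fasted against fed mice, by distance to the nearest TSS, on the deposited scale (left) and after centring each library on its median (right). Peaks under 1 kb from a TSS were closed in 4.23% of cases as deposited and 6.40% after centring, while the bins beyond 5 kb lay between 18.2% and 28.1%.

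The share of all normalized reads that fell in promoter peaks was 46.1%, 45.2%, 47.4% and 47.1% in fasted mice, against 45.2%, 46.5%, 44.6% and 45.4% in fed mice. The groups overlapped. The means were 46.4% ± 0.995 in fasted and 45.4% ± 0.760 in fed mice (SD, n = 4 each), a difference of 1.01 percentage points that did not pass an exact two-sided permutation test (p = 0.171, where 0.0286 is the smallest p that 4 against 4 mice allow).

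RefSeq promoter sequences show the letters at or beside some of these peaks, and a match in a window can lie outside the 200 bp peak. A tested peak covered at least 100 bases of 8390 promoter windows of 300 bases (250 before and 50 after a start, GRCm38.p6), of which 1393 were opened and 288 closed. Of the 17 named peaks within 1 kb of a TSS, 8 belong to genes with a window in this table. The 250 bases before the start are shown for 4 of these 8, picked with their values known because the results below name them: both metallothioneins, a fatty acid importer and the receptor Lifr. Capitals mark matches to any of the 15 motifs searched on both strands.
Mt2 (chr8:94172368-94172617, plus strand): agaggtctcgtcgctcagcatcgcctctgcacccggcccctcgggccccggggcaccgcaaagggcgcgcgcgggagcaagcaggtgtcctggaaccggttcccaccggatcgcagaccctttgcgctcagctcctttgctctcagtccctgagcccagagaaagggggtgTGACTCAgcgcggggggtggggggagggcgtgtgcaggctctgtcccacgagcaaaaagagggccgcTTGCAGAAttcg
Mt1 (chr8:94178839-94179088, plus strand): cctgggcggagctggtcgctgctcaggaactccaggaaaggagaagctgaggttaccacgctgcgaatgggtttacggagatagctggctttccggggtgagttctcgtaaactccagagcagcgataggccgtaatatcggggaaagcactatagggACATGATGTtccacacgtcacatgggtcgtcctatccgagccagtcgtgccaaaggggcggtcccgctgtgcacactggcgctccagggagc
Slc27a2 (chr2:126552774-126553023, plus strand): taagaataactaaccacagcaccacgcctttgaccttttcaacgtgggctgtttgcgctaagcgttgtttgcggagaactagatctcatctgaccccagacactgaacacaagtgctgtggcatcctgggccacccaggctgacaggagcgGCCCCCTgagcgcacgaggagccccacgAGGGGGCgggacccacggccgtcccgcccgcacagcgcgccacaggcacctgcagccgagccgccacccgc
Lifr (chr15:7140292-7140541, plus strand): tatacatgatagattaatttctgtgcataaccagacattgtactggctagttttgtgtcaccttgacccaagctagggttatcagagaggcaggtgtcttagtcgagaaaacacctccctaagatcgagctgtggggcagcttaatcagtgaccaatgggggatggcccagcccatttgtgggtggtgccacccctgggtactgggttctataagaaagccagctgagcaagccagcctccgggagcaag
The Mt2 window holds an AP-1 match (TGANTCA) that starts 79 bases before the TSS and a C/EBP match (TTGCNNAA) 12 bases before it. Mt1 holds a match to the glucocorticoid receptor core ACANNNTGT 92 bases before its TSS. Slc27a2 holds the CTCF core AGGGGGC on opposite strands 99 and 71 bases before its TSS, and Lifr none of the 15. The AP-1 letters are found in 7.81%, the C/EBP letters in 10.8%, the receptor core in 6.85% and the CTCF core in 10.6% of all 32851 windows of the table.

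Shares by direction are described for 2 of the 15 motifs, STAT and AP-1, and other motifs differed too. The glucocorticoid receptor core was in 7.29% of closed and 3.60% of all covered windows, and the CTCF core in 9.72% and 17.1%. For the receptor core the directions were closer in other sets, with 9.68% of windows opened and 8.11% of windows closed at least 2-fold. After centring it was in 4.97% of opened and 5.41% of closed windows. The STAT palindrome TTCNNNGAA was present in 14.9% of the 288 closed windows, 3.59% of the 1393 opened windows and 6.57% of all 8390 covered windows, and in 8 of 37 windows closed at least 2-fold. The median GC content was 54.8% in closed and 65.0% in opened windows, against 62.0% in all, and the part of base composition in these shares was not tested. The stretches around the match are shown for the 5 of these 8 genes that are not predicted genes, with 10 bases on each side and the match in capitals.
Gbp7 (chr3:142530220-142530248, plus strand): tccgttttctTTCCAGGAAaagcagaagc
Camk1d (chr2:5676264-5676292, minus strand): ctggtgctgtTTCTGAGAAgccagtgggt
Ifitm3 (chr7:141010713-141010741, minus strand): aaaaggaaacTTCTGAGAAaccgaaactg
A1bg (chr15:60921336-60921364, minus strand): tgcccctaccTTCCAGGAAgggcaaacaa
Igfals (chr17:24877598-24877626, plus strand): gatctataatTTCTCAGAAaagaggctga
Gbp7 and Ifitm3 are interferon-induced genes, and Igfals encodes the acid-labile subunit that carries IGF-1 in blood and is induced by growth hormone. At Gbp7 the peak had 45.5, 25.4, 35.1 and 15.9 in fasted mice and 121, 70.6, 137 and 133 in fed mice, a change of -1.90 ± 0.23. At Ifitm3 it had 17.1, 14.1, 14.9 and 11.04 in fasted mice and 36.7, 41.8, 35.5 and 44.0 in fed mice, a change of -1.36 ± 0.18. At Igfals it had 22.8, 18.4, 21.3 and 13.1 in fasted mice and 34.0, 54.8, 39.0 and 34.5 in fed mice, a change of -1.03 ± 0.25. The match lay under the peak at Gbp7, Ifitm3 and A1bg, and outside it at Camk1d and Igfals.

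The AP-1 letters TGANTCA were present in 14 of the 62 windows opened at least 2-fold (22.6%), against 6.10% of all opened, 3.82% of closed and 4.51% of all covered windows. In the same 62 windows the C/EBP letters were in 17.7%, against 8.86% of all covered windows. The ETS letters CCGGAAGT were in 1.61%, against 9.36%. Of the 14, 9 are not predicted genes; Mt2 is shown above and the others follow in order of their change, with up to 10 bases on each side.
Acot5 (chr12:84069075-84069095, plus strand): cgctTGAGTCAtgatttcacc
Cidec (chr6:113434844-113434870, minus strand): ccaggaggtgTGACTCAcctcctgcca
Il22ra1 (chr4:135727927-135727953, plus strand): ggccttgggaTGAATCAgtcaccagac
Retreg1 (chr15:25940691-25940717, plus strand): aacttccccgTGACTCAaaggaggaga
Slc10a2 (chr8:5105389-5105415, minus strand): ggacgttttaTGATTCAttatttgtgc
Cgref1 (chr5:30945644-30945670, minus strand): tgcctccatcTGAGTCAcagtgacaca
Sgms2 (chr3:131490783-131490809, minus strand): caccacccctTGAGTCAgcgggtgccc
Rdh9 (chr10:127776334-127776360, plus strand): gaccagagacTGAGTCAccaatagtta
Acot5 is an acyl-CoA thioesterase, Cidec a lipid droplet protein, Il22ra1 the receptor of interleukin 22 and Retreg1 (FAM134B) a receptor for autophagy of the endoplasmic reticulum. At Acot5 the peak had 54.1, 38.1, 35.1 and 54.5 in fasted mice and 11.02, 5.57, 14.6 and 11.9 in fed mice, a change of 1.92 ± 0.39. At Cidec it had 142, 91.8, 91.4 and 127 in fasted mice and 30.3, 33.4, 31.3 and 24.4 in fed mice, a change of 1.83 ± 0.20. At Il22ra1 it had 54.8, 76.3, 59.8 and 76.6 in fasted mice and 22.9, 23.2, 20.9 and 16.7 in fed mice, a change of 1.58 ± 0.20. The match lay under the peak at 5 of the 9 genes, and outside it at Acot5, Retreg1, Cgref1 and Rdh9. For Mt2 the peak over the match was a second one, with a change of 2.84 ± 0.40. The Mt2 peak named with the glucocorticoid response genes, 60 bp from the TSS with a change of 3.13 ± 0.31, does not cover the match. The peak at the RefSeq start of Sgms2 is listed in the deposited annotation under Papss1, 73918 bp from its TSS. A match is a description of the letters and not of a bound factor.

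Most of the peaks of largest change were distal and nearly empty on one side. The named ones were chosen among called peaks where fasted and fed mice did not overlap, so that this separation is not a result. With an offset of 2, the largest rise lay 11183 bp downstream of the TSS of Cyp4a14, a fatty acid omega-hydroxylase and PPAR alpha target (chr4:115484858-115485058), with 63.3, 116, 70.7 and 109.7 normalized reads in fasted mice, against 2.75, 1.86, 0.697 and 4.76 in fed mice. The highest of the 16 fed mice of all times stood at 4.76, and the log2 fold change was 4.38 ± 0.37 (adjusted p = 4.83e-11). Lpin1, a phosphatidate phosphatase that also coactivates PPAR alpha, had a peak 9443 bp upstream of the TSS (chr12:16620309-16620509) with 155, 161, 151 and 196 normalized reads in fasted mice, against 7.34, 10.2, 11.1 and 10.7 in fed mice. The change at this peak was 3.83 ± 0.29 (adjusted p = 6.85e-12). Asic5, an ion channel gene, had 132, 93.2, 108 and 127 normalized reads in fasted mice, against 4.59, 6.50, 7.66 and 6.55 in fed mice at a peak 33237 bp downstream of the TSS (chr3:82030059-82030259), a change of 3.81 ± 0.26. A peak 49768 bp upstream of the TSS of Il1r1, the signalling receptor of interleukin 1 (chr1:40175212-40175412), held 159, 151, 119 and 189 normalized reads in fasted mice, against 10.1, 10.2, 15.3 and 11.3 in fed mice, a change of 3.51 ± 0.34. Chn2, a GTPase-activating protein of Rac, had an intronic peak (chr6:54213794-54213994) with 86.1, 62.1, 66.1 and 80.7 normalized reads in fasted mice, against 6.43, 3.71, 3.48 and 8.33 in fed mice.

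The fasted mice were not always alike at these peaks. Near Ddit4, whose product REDD1 inhibits mTORC1, a peak 30675 bp downstream of the TSS (chr10:59920995-59921195) had 24.9, 72.0, 29.3 and 179 normalized reads in fasted mice, against 2.75, 4.64, 4.88 and 5.36 in fed mice. Fasted mice 2 and 4 were far above fasted mice 1 and 3 at this peak, and the change was 3.20 ± 0.40 (adjusted p = 1.15e-07). Peaks near Sel1l3 (85.4, 49.4, 51.1 and 65.5 in fasted mice and 5.51, 2.79, 4.88 and 7.14 in fed mice) and near C1qtnf3, a secreted C1q- and TNF-related protein (44.8, 39.5, 39.7 and 55.9 in fasted mice and 2.75, 1.86, 6.97 and 2.38 in fed mice), completed the named peaks of largest rise. With offsets of 0.5 and 8 in place of 2, the log2 fold change at Cyp4a14 was 5.05 and 3.19 and at Lpin1 4.01 and 3.28, so that the size of these changes and the order of the 2 depend on the offset and the direction does not.

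Shcbp1, a signalling adaptor, had the largest fall with an offset of 2, at a peak 59694 bp upstream of the TSS (chr8:4839161-4839361), with 6.40, 5.65, 8.62 and 4.14 normalized reads in fasted mice, against 130.3, 140.2, 163 and 136 in fed mice. The groups lay far apart, a change of -4.16 ± 0.31 (adjusted p = 3.90e-12). Car3, a muscle and liver carbonic anhydrase, had 2.85, 0, 1.15 and 0.690 normalized reads in fasted mice, against 29.4, 28.8, 30.7 and 39.9 in fed mice at the end of the gene (chr3:14872597-14872797). The fasted values there correspond to a few reads at most, and the change of -3.49 ± 0.40 was -4.59 with an offset of 0.5, where Shcbp1 had -4.45, and -2.13 with an offset of 8. Insig1, which holds the SREBP escort protein SCAP in the endoplasmic reticulum, had 3.56, 2.82, 4.02 and 2.07 normalized reads in fasted mice, against 44.1, 49.2, 27.9 and 65.5 in fed mice at a peak 8113 bp downstream of the TSS (chr5:28079425-28079625), a change of -3.21 ± 0.29.

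Angptl8, an insulin-induced secreted inhibitor of lipoprotein lipase, had 9.25, 1.41, 7.47 and 2.07 normalized reads in fasted mice, against 64.3, 110.5, 28.6 and 33.9 in fed mice just past the gene (chr9:21837826-21838026). Fed mice varied among themselves here (change -3.11 ± 0.36, adjusted p = 2.67e-08). The promoter peak of Slc22a7, the liver organic anion transporter OAT2 (chr17:46438570-46438770), had 26.3, 33.9, 18.4 and 9.66 normalized reads in fasted mice, against 164, 201, 166 and 142 in fed mice, a change of -2.93 ± 0.34 (adjusted p = 2.93e-08). Lying 193 bp upstream of the TSS, it was the nearest to a TSS of the 17 named peaks of largest change. The others were Wdr1, a cofactor of actin disassembly (2.85, 1.41, 6.32 and 3.45 in fasted mice and 53.2, 48.3, 39.0 and 44.6 in fed mice), Hist1h2br, a histone H2B gene (0.711, 8.47, 1.15 and 4.83 in fasted mice and 48.7, 28.8, 39.7 and 48.2 in fed mice), Csmd1 (4.27, 2.82, 0.575 and 0.690 in fasted mice and 27.5, 34.4, 30.7 and 28.0 in fed mice) and Ccdc69 (7.11, 4.24, 8.05 and 4.14 in fasted mice and 45.9, 63.1, 66.9 and 58.3 in fed mice).

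**Figure D2:**
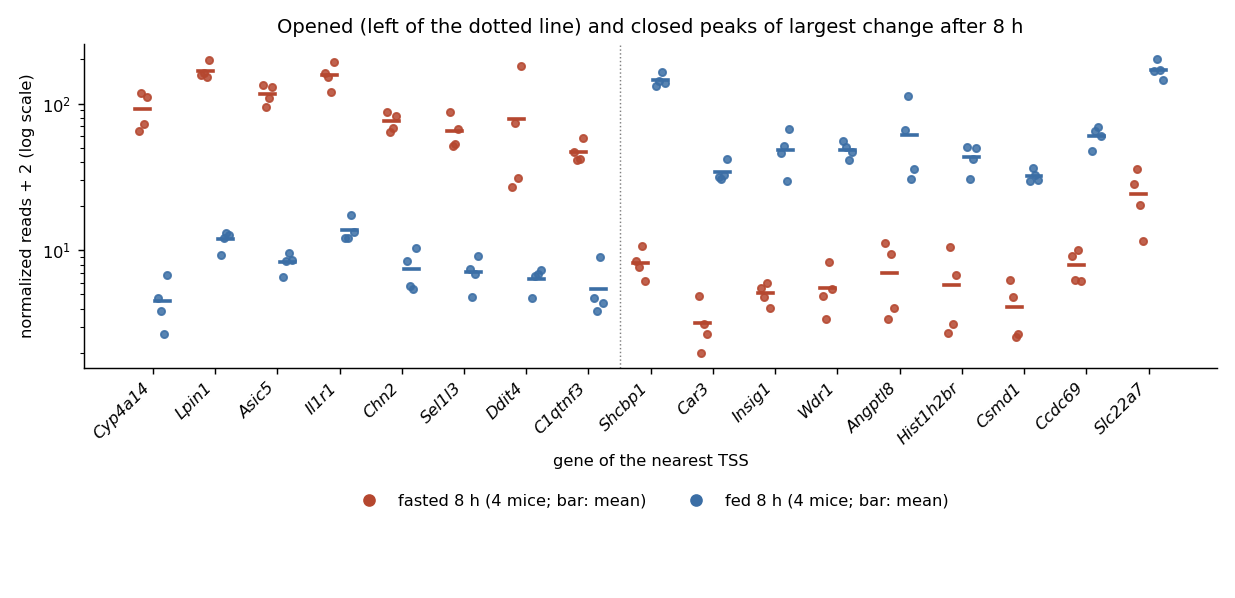
Normalized reads plus 2 (log axis) of each 8 h fasted (red) and fed (blue) mouse at the named peaks of largest change, with bars at the mean of 4 mice. The 17 peaks were chosen among those with no overlap between fasted and fed mice, and the 4 fasted mice at Ddit4 run from 24.9 to 179 normalized reads.

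The lists of genes take the peaks whose nearest TSS within 50 kb belongs to a listed gene. PPAR alpha target genes had 78 opened and 5 closed of 127 peaks near 20 genes, shares of 61.4% and 3.94% and the highest opened share of the 23 lists, with a median log2 fold change of 0.54 over the list against 0.08 over all tested peaks. Ketogenesis and the carnitine shuttle had 25 opened (48.1%) and 1 closed (1.92%) of 52 peaks near 9 genes. Beta-oxidation had 64 opened (48.9%) and 8 closed (6.11%) of 131 peaks near 27 genes. These lists share genes. After centring the PPAR list had 71 opened and 8 closed peaks, the ketogenesis list 22 and 1, and the beta-oxidation list 48 and 9.

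Pdk4, the kinase that shuts pyruvate out of oxidation, had 205, 175, 172 and 212 normalized reads in fasted mice, against 44.1, 34.4, 41.1 and 39.3 in fed mice at a peak 13646 bp upstream of the TSS (chr6:5509824-5510024), a change of 2.21 ± 0.15 (adjusted p = 3.83e-13). Angptl4, a secreted inhibitor of lipoprotein lipase, had 73.3, 87.6, 70.1 and 111 normalized reads in fasted mice, against 18.4, 19.5, 18.1 and 14.3 in fed mice at its first exon (chr17:33781352-33781552), a change of 2.15 ± 0.21. Its locus was opened in 9 of 11 peaks, and the lipid droplet genes Plin2 and Cidec in 7 of 9 and 3 of 4. Ehhadh, the bifunctional enzyme of peroxisomal oxidation, had 69.7, 65.0, 62.6 and 70.4 normalized reads in fasted mice, against 4.59, 11.1, 10.4 and 6.55 in fed mice (chr16:21790541-21790741), a change of 2.81 ± 0.28 (adjusted p = 1.72e-09). Slc27a2, which activates very long chain fatty acids, showed a smaller rise at its promoter (chr2:126552849-126553049), with 228, 249.99, 236 and 295 normalized reads in fasted mice, against 146, 162, 144 and 154 in fed mice (change 0.72 ± 0.08). Cpt1a, the gate of fatty acids into mitochondria, was opened in 7 of 13 peaks. Slc22a5, the carnitine importer, had 108, 97.5, 103 and 126 normalized reads in fasted mice, against 29.4, 31.6, 46.7 and 28.6 in fed mice at a peak 19610 bp upstream of the TSS (chr11:53911213-53911413), a change of 1.64 ± 0.18 (adjusted p = 1.70e-08).

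Beta-oxidation genes with closed peaks were Acsl1, which activates long chain fatty acids, with 3 opened and 4 closed of 17 peaks, and with 1 closed peak each Acadm, Acaa1b, Etfa and Etfb.

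Gluconeogenesis had 54 opened and 9 closed of 146 peaks near 14 genes, shares of 37.0% and 6.16%. G6pc, which releases free glucose, was opened in 11 of 17 peaks and Pck1, the cytosolic PEP carboxykinase, in 5 of 12, neither with a closed peak. Ppargc1a, the PGC-1 alpha coactivator, had 142, 154, 129 and 174 normalized reads in fasted mice, against 50.5, 44.6, 47.4 and 40.5 in fed mice at a peak 28137 bp upstream of the TSS (chr5:51595762-51595962), a change of 1.66 ± 0.20 (adjusted p = 5.29e-08). Sik1, a kinase that CREB induces and that restrains CREB coactivators, had 139, 98.9, 101 and 123 normalized reads in fasted mice, against 31.2, 26.0, 43.2 and 35.1 in fed mice (chr17:31874095-31874295), a change of 1.72 ± 0.21. Closed peaks in the list belonged to Fbp1 (3), Mdh1 (2), Slc25a25 (2), Pcx (1) and Sik1 (1).

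Glucocorticoid response genes had 64 opened and 11 closed of 160 peaks near 16 genes, shares of 40% and 6.88%. Fasted mice varied widely here, with summed levels of the list from 10100 to 16535 normalized reads, against 8976 to 10351 in fed mice, which overlapped. Both metallothionein promoters were opened. Mt2 had 189, 198, 135 and 190.4 normalized reads in fasted mice, against 29.4, 26.0, 12.5 and 11.3 in fed mice (chr8:94172578-94172778), a change of 3.13 ± 0.31 (adjusted p = 1.11e-09). Mt1 had 211, 244, 206 and 286 normalized reads in fasted mice, against 93.6, 101, 84.3 and 53.0 in fed mice (chr8:94178977-94179177), a change of 1.52 ± 0.16 (adjusted p = 3.61e-09). Metallothioneins bind zinc and copper and respond to metals and stress hormones. Klf9, a Kruppel-like factor, was opened in 8 of 10 peaks, Fkbp5, a chaperone of steroid receptors, in 6 of 11 with 1 closed, while Sgk1 had 0 called peaks of 3. Tsc22d3, known as GILZ, had 1 opened and 3 closed of 20 peaks.

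Amino acid catabolism, the source of carbon for glucose, moved less as a group, with 47 opened and 8 closed of 219 peaks near 29 genes, shares of 21.5% and 3.65%, the opened share being near that of all peaks. Within it Gpt2, an alanine aminotransferase, and Gldc, of the glycine cleavage system, were opened in 7 of 14 and 7 of 16 peaks. Tdo2, which starts tryptophan breakdown, had 59.1, 69.2, 45.4 and 75.2 normalized reads in fasted mice, against 21.1, 22.3, 21.6 and 19.6 in fed mice (chr3:81983609-81983809), a change of 1.45 ± 0.17. Prodh, proline dehydrogenase, went the other way in an intron (chr16:18081521-18081721), with 56.9, 77.7, 57.5 and 51.0 normalized reads in fasted mice, against 162, 163, 129 and 119.6 in fed mice (change -1.22 ± 0.15). Genes of the urea cycle totalled 5 opened and 4 closed of 66 peaks near 8 genes, under the background in both directions, and 3 opened and 6 closed after centring, where the larger direction turned. Slc25a15, the ornithine carrier, had 24.9, 21.2, 23.6 and 17.2 in fasted mice and 32.1, 40.9, 46.0 and 45.2 in fed mice (chr8:22385245-22385445), a change of -0.86 ± 0.20. Nags, the synthase of the cycle's activator, had 148, 126, 144 and 118 in fasted mice and 105, 119, 78.0 and 97.0 in fed mice at its promoter (chr11:102145364-102145564), a change of 0.43 ± 0.13 (adjusted p = 0.00716) with overlapping mice, the sole overlap among the 46 peaks named from the lists. Without fed mouse 3 the Nags call was lost.

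Integrated stress response genes had 21 opened (37.5%) and 3 closed (5.36%) of 56 peaks near 14 genes. Phgdh, the first enzyme of serine synthesis, was opened in 7 of 7 peaks. Sesn2, a leucine sensor that restrains mTORC1, had 106, 159.6, 119.5 and 135 normalized reads in fasted mice, against 45.9, 67.8, 45.3 and 51.2 in fed mice (chr4:132513955-132514155), a change of 1.28 ± 0.18. Autophagy and lysosome genes had 23 opened and 6 closed of 101 peaks near 18 genes, an opened share near the background. Its named peaks were at mitophagy receptors. Bnip3l had 93.2, 93.2, 86.2 and 102 normalized reads in fasted mice, against 15.6, 6.50, 21.6 and 14.3 in fed mice (chr14:67007567-67007767), a change of 2.62 ± 0.31 (adjusted p = 3.72e-08), and Bnip3 had 84.7, 43.8, 50.6 and 44.1 in fasted mice and 13.8, 13.9, 21.6 and 11.9 in fed mice (chr7:138902365-138902565), a change of 1.72 ± 0.23.

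Sterol synthesis and uptake had more closed than opened peaks, with 14 opened and 43 closed of 137 peaks near 24 genes, shares of 10.2% and 31.4% and a list median of -0.15. Sqle, squalene epoxidase, had 17.8, 11.3, 16.7 and 11.7 normalized reads in fasted mice, against 89.0, 72.4, 71.8 and 85.7 in fed mice in an intron (chr15:59317127-59317327), a change of -2.34 ± 0.22 (adjusted p = 7.36e-10), and all 5 of its peaks were closed. Hmgcs1, the cytosolic HMG-CoA synthase, stood against the list with 7 opened peaks and 1 closed of 10, from -0.21 to 2.66.

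Fatty acid and triglyceride synthesis was mixed, with 29 opened (17.9%) and 33 closed (20.4%) of 162 peaks near 20 genes and a list median of 0.00. Scd1, the desaturase that makes oleate, had 15.7, 15.5, 20.1 and 18.6 normalized reads in fasted mice, against 78.9, 139, 78.0 and 95.8 in fed mice at its promoter (chr19:44407787-44407987), a change of -2.33 ± 0.23 (adjusted p = 1.11e-09). Fads1, the delta-5 desaturase, had 17.1, 26.8, 22.4 and 20.7 normalized reads in fasted mice, against 81.7, 94.7, 78.7 and 86.3 in fed mice in an intron (chr19:10184236-10184436), a change of -1.89 ± 0.18 (adjusted p = 6.85e-10). Srebf1, the insulin-driven SREBP, was closed in 5 of 11 peaks, and Acly and Thrsp in 3 of 8 and 3 of 7. Fasn and Acaca, which build palmitate, had 0 closed peaks of 8 and of 3, with 1 opened at Fasn. The triglyceride genes Gpam and Dgat2 each had 5 opened peaks and 1 closed, of 12 and of 20. The list had 20 opened and 44 closed after centring.

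Genes of growth hormone signalling through STAT5 had 10 opened and 31 closed of 137 peaks near 13 genes, shares of 7.30% and 22.6%. Cish, the STAT5-induced feedback inhibitor, had 15.7, 14.1, 11.5 and 8.28 normalized reads in fasted mice, against 92.7, 61.3, 68.3 and 58.3 in fed mice at a peak 8553 bp downstream of the TSS (chr9:107305112-107305312), a change of -2.33 ± 0.25 (adjusted p = 9.03e-09), and 8 of its 11 peaks were closed with none opened. Lifr, the receptor of leukaemia inhibitory factor, had 16.4, 35.3, 22.99 and 43.5 normalized reads in fasted mice, against 102, 78.0, 98.9 and 69.6 in fed mice at its promoter (chr15:7140380-7140580), a change of -1.57 ± 0.24 (adjusted p = 3.52e-06). Prlr, the prolactin receptor, was closed in 5 of 16 peaks and opened in 1. The growth hormone receptor gene Ghr had 0 called peaks of 8 within 50 kb. Stat5b had 1 opened and none closed of 9, while Stat5a had 2 closed and none opened of 7, with a lowest change of -1.33. Within 100 kb Ghr had 2 closed and 0 opened of 12 peaks, with a lowest change of -2.02.

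Insulin signalling and FOXO genes had 23 opened and 10 closed of 113 peaks near 17 genes, the opened share at the background. Igfbp1, a FOXO target that binds insulin-like growth factors, was opened in 3 of 4 peaks, up to 2.78 on the log2 scale. Pik3r1, the regulatory subunit of PI3 kinase, had 56.9, 43.8, 66.7 and 44.8 normalized reads in fasted mice, against 101, 105, 100.3 and 97.6 in fed mice just upstream of a TSS (chr13:101768638-101768838), a change of -0.92 ± 0.15 (adjusted p = 1.25e-05), and Akt1 had 49.8, 35.3, 53.4 and 37.9 in fasted mice and 124, 101, 127 and 99.4 in fed mice in an intron (chr12:112671064-112671264), a change of -1.33 ± 0.22. Glycolysis and glycogen genes had 36 opened (27.3%) and 16 closed (12.1%) of 132 peaks near 20 genes. Gys2, liver glycogen synthase, had 54.1, 45.2, 36.2 and 38.6 in fasted mice and 8.26, 17.6, 11.1 and 11.3 in fed mice upstream of its TSS (chr6:142473558-142473758), a change of 1.72 ± 0.23 (adjusted p = 3.21e-07). Pklr, liver pyruvate kinase, was closed in 3 of 3 peaks.

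Bile acid synthesis and transport had as many closed as opened peaks, 18 opened (17.3%) and 18 closed (17.3%) of 104 peaks near 15 genes. After centring 13 were opened and 22 closed. Cyp7a1, the hydroxylase that commits cholesterol to bile acids, had 14.9, 12.7, 14.4 and 10.3 normalized reads in fasted mice, against 47.7, 44.6, 53.6 and 57.1 in fed mice at its promoter (chr4:6275574-6275774), a change of -1.81 ± 0.18 (adjusted p = 1.20e-09). Cyp8b1, the 12 alpha-hydroxylase, was opened in 4 of 9 peaks and closed in none. Slco1a4, an organic anion uptake carrier, had 37.0, 50.8, 41.4 and 64.1 normalized reads in fasted mice, against 10.1, 8.36, 6.97 and 7.14 in fed mice (chr6:141882634-141882834), a change of 2.29 ± 0.29. Secreted liver hormones had 47 opened (30.3%) and 22 closed (14.2%) of 155 peaks near 20 genes. Angptl8 held 10 of the closed peaks and Ahsg, the gene of fetuin A, 5. Igfbp2 had 125, 143, 111 and 143 normalized reads in fasted mice, against 21.1, 22.3, 40.4 and 32.7 in fed mice at a peak 33595 bp upstream of the TSS (chr1:72790785-72790985), a change of 2.13 ± 0.20 (adjusted p = 4.76e-10). Fgf21, a hormone that PPAR alpha induces, was opened in 2 of 4 peaks.

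Genes of the C/EBP and Kruppel-like factors had 32 opened and 6 closed of 82 peaks near 10 genes, shares of 39.0% and 7.32%. Cebpb was opened in 5 of 5 peaks, and Klf10 had 87.5, 76.3, 74.1 and 95.2 normalized reads in fasted mice, against 18.4, 14.9, 22.99 and 14.3 in fed mice at a peak 47265 bp upstream of the TSS (chr15:38347876-38348076), a change of 2.13 ± 0.24. Cebpa, the C/EBP of the resting liver, had 5 opened and 4 closed of 20 peaks. Its named peak 2638 bp upstream of the TSS (chr7:35116555-35116755) had 43.4, 43.8, 36.2 and 54.5 normalized reads in fasted mice, against 137, 138, 156 and 157 in fed mice, a change of -1.69 ± 0.16 (adjusted p = 4.10e-10). Hepatocyte lineage factors went the other way as a list, with 8 opened (9.88%) and 17 closed (21.0%) of 81 peaks near 8 genes. Prox1 had 11.4, 22.6, 14.4 and 17.2 in fasted mice and 37.6, 43.6, 54.3 and 44.0 in fed mice (chr1:190133247-190133447), a change of -1.38 ± 0.21, and Foxa2 had 24.2, 29.7, 25.9 and 20.7 in fasted mice and 55.1, 48.3, 59.9 and 54.2 in fed mice (chr2:147996889-147997089), a change of -1.06 ± 0.18. Hnf4a was closed in 4 of 8 peaks, Foxa2 in 5 of 10 and Onecut1 in 5 of 11, while Foxa1 had 2 opened and none closed of 6.

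Nuclear receptors of metabolism had 21 opened (16.8%) and 18 closed (14.4%) of 125 peaks near 13 genes. They had 17 opened and 20 closed after centring, so that the larger direction turned with the scaling. Rxra, the partner of PPAR alpha, had 99.6, 97.5, 98.3 and 134 normalized reads in fasted mice, against 36.7, 36.2, 40.4 and 37.5 in fed mice at an intronic peak (chr2:27714231-27714431), a change of 1.45 ± 0.25 (adjusted p = 2.55e-05). Ppara itself had 3 opened and 5 closed of 15 peaks, and the named one (chr15:85731889-85732089) had 34.9, 19.8, 24.7 and 15.9 normalized reads in fasted mice, against 50.5, 65.0, 55.7 and 56.5 in fed mice, a change of -1.24 ± 0.22 (adjusted p = 2.56e-05). Clock genes had 32 opened (23.9%) and 12 closed (8.96%) of 134 peaks near 19 genes, the opened share being near that of all peaks. After centring the list had 24 opened and 18 closed. Nr1d1, the REV-ERB alpha repressor, had 107, 129, 90.2 and 119 normalized reads in fasted mice, against 38.6, 44.6, 34.8 and 41.7 in fed mice in an intron (chr11:98773686-98773886), a change of 1.43 ± 0.12 (adjusted p = 8.39e-11). The 16 fed mice of all times ranged from 34.8 to 139 at this peak, and the fasted 8 h mice lay within that range. Ciart, a repressor of the clock activators, had 56.9, 56.5, 52.9 and 75.9 in fasted mice and 21.1, 27.9, 29.3 and 17.9 in fed mice (chr3:95881927-95882127), a change of 1.28 ± 0.16. Of the clock activators, Arntl and Clock had 0 called peaks of 6 and of 3.

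Immediate early genes, AP-1 members among them, had 29 opened (36.25%) and 6 closed (7.5%) of 80 peaks near 12 genes. Fosb had 109, 155, 145 and 161 normalized reads in fasted mice, against 63.3, 70.6, 74.5 and 73.8 in fed mice at a peak 17272 bp upstream of the TSS (chr7:19327217-19327417), a change of 0.98 ± 0.12, and Junb and Egr1 were opened in 5 of 6 and 5 of 11 peaks. Myc had 34.9, 38.1, 44.2 and 40.01 in fasted mice and 108, 88.2, 116 and 98.8 in fed mice at a distal peak (chr15:61939441-61939641), a change of -1.34 ± 0.17, and Ier2 was closed in 3 of 10 peaks. Acute phase and interleukin receptor genes had 24 opened (27.0%) and 9 closed (10.1%) of 89 peaks near 15 genes. Hp, haptoglobin, had 79.7, 153, 73.0 and 116 normalized reads in fasted mice, against 26.6, 28.8, 44.6 and 36.9 in fed mice (chr8:109585729-109585929), a change of 1.53 ± 0.24, and Apcs, serum amyloid P, had 136, 148, 117 and 127 in fasted mice and 43.1, 35.3, 78.7 and 47.6 in fed mice (chr1:172903423-172903623), a change of 1.39 ± 0.22. All 4 called peaks of the fibrinogen genes Fga, Fgb and Fgg were closed. Antigen presentation and interferon response genes had 7 opened (14%) and 13 closed (26%) of 50 peaks near 16 genes. Irf1, an interferon regulatory factor, had 15.7, 15.5, 8.62 and 8.28 in fasted mice and 40.4, 44.6, 39.7 and 39.9 in fed mice in its first intron (chr11:53771098-53771298), a change of -1.67 ± 0.24. B2m, the light chain of class I molecules, was closed in 4 of 7 peaks.

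**Figure D3:**
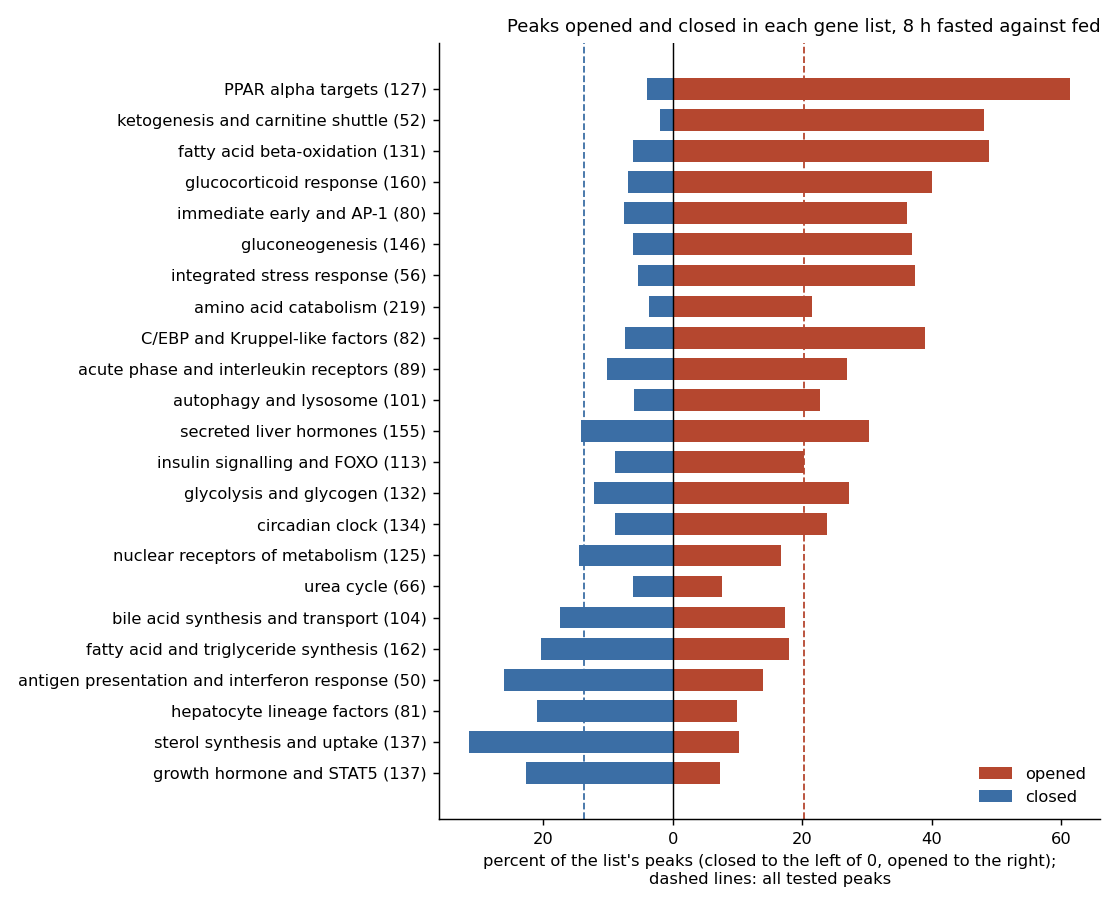
Percent of tested peaks opened (red, right) and closed (blue, left) in 8 h fasted against fed mice for each gene list, with the number of peaks in brackets and the shares of all tested peaks, 20.3% and 13.7%, as dashed lines. Lists are ordered by their median log2 fold change, from 0.54 for PPAR alpha targets to -0.16 for growth hormone and STAT5.

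Whole loci moved together in many genes and split in others. Of 553 genes with at least 5 called peaks within 100 kb, 178 had opened peaks and no closed one, 55 closed peaks and no opened one, and 320 both. After centring, 480 genes had at least 5 called peaks, 104 of them opened alone and 95 closed alone. Sulf2, a sulfatase that trims heparan sulfate, was opened in 13 of 16 peaks (0.13 to 2.56 on the log2 scale), Klf9 in 13 of 15 (0.04 to 1.90) and Ptpn1, the phosphatase that switches off the insulin receptor, in 13 of 22 (-0.18 to 2.01), none with a closed peak. Prkag2, a regulatory subunit of AMPK, had 13 opened and 4 closed of 28. All but 1 of the opened peaks of Ptpn1 lay 61982 to 97544 bp upstream of its TSS, while the peak 21 bp upstream was not called.

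Angptl8 and Foxa2 were each closed in 10 peaks, of 16 and of 17, with none opened. Insig1 was closed in 10 of 24 and opened in 3, from -3.21 to 1.30. At this gene the peak 203 bp upstream of the TSS was at -0.02, the peak 641 bp downstream at 1.30 and the 3 peaks 7726 to 8613 bp downstream at -2.15 to -3.21. Car3 was closed in 9 of 10 peaks and Cyp7a1 in 9 of 12 with none opened at either. Split loci of even counts were Iqgap2 and Papss1, each with 4 opened and 4 closed peaks of 19 and of 17, and 16 genes had at least 4 peaks in each direction. The opened Papss1 peak 73918 bp upstream is the one at the RefSeq start of Sgms2, and those 74794 and 74954 bp upstream lie near it. The split at Papss1 thus rests on the deposited annotation by nearest TSS. Cyp7a1 was chosen here after its values were seen, as were Cish and G6pc in the plot of loci.

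Genes with a called promoter peak more often had a distal peak of the same direction than of the other. Of 1447 genes with an opened promoter peak and a tested distal peak within 100 kb, 744 (51.4%) also had an opened distal peak and 500 (34.6%) a closed one. Of 404 genes with a closed promoter peak, 232 (57.4%) had a closed distal peak and 122 (30.2%) an opened one. Over all 5351 genes with a promoter and a distal peak tested, 39.1% had an opened and 39.0% a closed distal peak. The shares of the same direction lay above these and those of the other direction below.

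**Figure D4:**
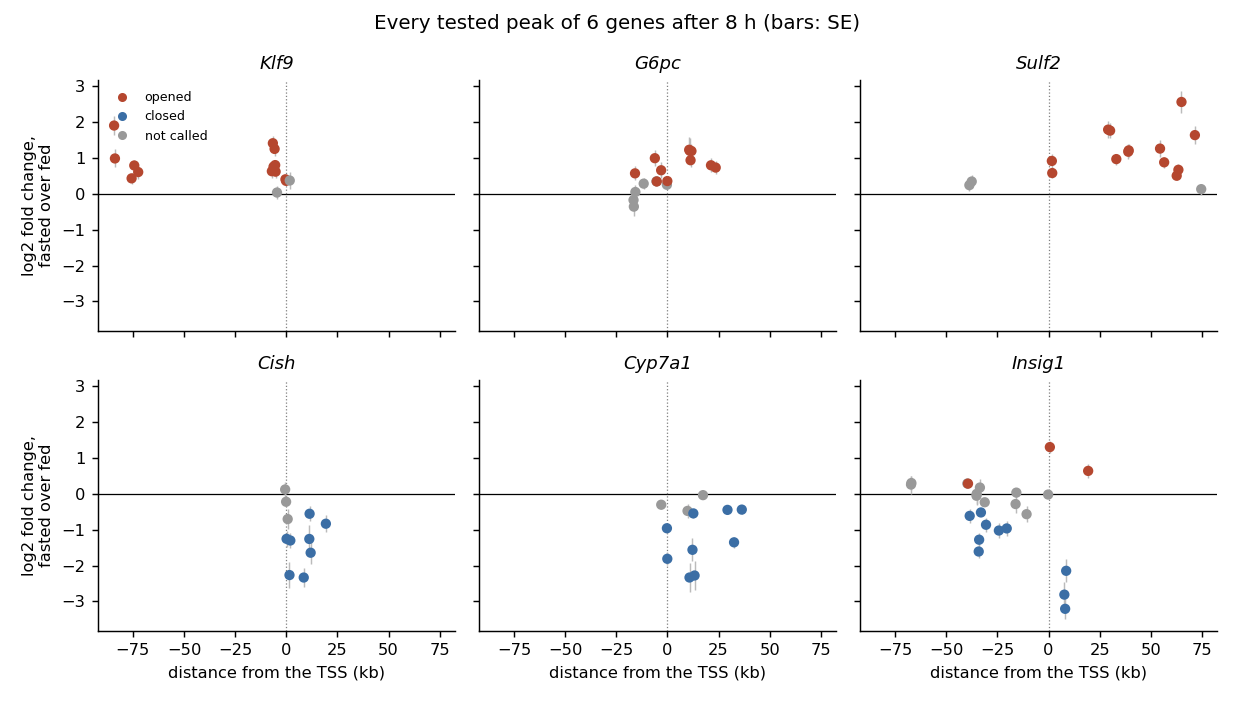
Log2 fold change ± SE of every tested peak within 100 kb, by distance from the TSS, at 6 genes (opened in red, closed in blue, not called in grey). Klf9, G6pc and Sulf2 hold opened and no closed peaks, Cish and Cyp7a1 closed and no opened ones, and Insig1 both, from -3.21 to 1.30.

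The fasting effect at 8 h was set against that at 3 h, each taken against its own fed mice, to ask where its size differed. A difference does not show that a site was unchanged at 3 h. The effect was higher at 8 h in 710 peaks (1.52% of all tested) and lower in 474 (1.01%). Promoter peaks were 13.1% and 9.28% of these, against 34.9% of all tested peaks. Of the 710 peaks 586 were opened at 8 h and 5 closed, and of the 474 peaks 355 were closed and 6 opened. Over all tested peaks 20.3% were opened and 13.7% closed at 8 h. The same 8 h mice enter the choice of these peaks and their 8 h calls, so the higher shares follow in part from the choice. The balance turned with the scaling, with 491 higher and 618 lower after centring, 692 and 793 after quantile normalization and 544 and 901 in edgeR. These counts depend on single mice. The number higher was 356 without 8 h fasted mouse 1, 373 without 3 h fed mouse 1, 383 without 8 h fed mouse 1, 432 and 465 without 3 h fasted mice 2 and 3, and 467 without 8 h fed mouse 4. The number lower was 247 without 8 h fed mouse 1, 266 without 3 h fed mouse 1, 280 and 283 without 3 h fasted mice 3 and 2, 283 without 3 h fed mouse 2 and 310 without 8 h fasted mouse 1.

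Cbfa2t3, a transcriptional corepressor, had the highest difference, at a peak 17016 bp upstream of the TSS (chr8:122716025-122716225). At 3 h the level was 25.5 ± 8.21 in fasted and 39.2 ± 9.36 in fed mice (SD, n = 4 each), and at 8 h it was 148, 80.5, 113 and 176 normalized reads in fasted mice, against 23.9, 21.4, 24.4 and 15.5 in fed mice. The effects were -0.60 ± 0.31 at 3 h and 2.46 ± 0.31 at 8 h, a difference of 3.05 ± 0.43 (adjusted p = 3.03e-04). At G0s2, an inhibitor of the triglyceride lipase ATGL, the difference of 2.57 ± 0.56 (adjusted p = 0.0101) came with no call at 8 h. Its peak just past the gene (chr1:193271323-193271523) had 99.6, 50.8, 55.7 and 36.6 in fasted mice and 52.3, 72.4, 20.2 and 29.2 in fed mice at 8 h, which overlapped, and 17.3 ± 8.15 in fasted and 74.8 ± 25.9 in fed mice at 3 h. A peak 123429 bp upstream of the TSS of Ccnl1, a cyclin L gene, had a difference of 2.57 ± 0.51 (adjusted p = 0.00421), with 49.8, 50.8, 34.5 and 62.1 in fasted mice and 10.1, 11.1, 20.2 and 10.1 in fed mice at 8 h.

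Among the lowest differences, the Shcbp1 peak had 33.2 ± 9.15 in fasted and 133 ± 49.7 in fed mice at 3 h and a difference of -2.30 ± 0.44 (adjusted p = 0.00309). The peak had fallen at 3 h (-1.86 ± 0.31) and the fall was larger at 8 h. Tmtc4 had 2.85, 0, 4.02 and 1.38 in fasted mice and 42.2, 20.4, 28.6 and 17.9 in fed mice at 8 h at a peak 7469 bp upstream of the TSS (chr14:122990652-122990852), a difference of -2.33 ± 0.52 (adjusted p = 0.0107). Of the 17 named peaks, which were chosen for their change at 8 h, 6 differed in effect from 3 h. These were Lpin1 (1.89 ± 0.41, adjusted p = 0.00965), Asic5 (1.75 ± 0.36, adjusted p = 0.00635), Chn2 (1.63 ± 0.39, adjusted p = 0.0190), Sel1l3 (1.59 ± 0.36, adjusted p = 0.0138), Shcbp1 and the Slc22a7 promoter (-1.98 ± 0.48, adjusted p = 0.0194). All 6 were already called at 3 h in the same direction. Besides Shcbp1, the 3 h effects were 1.93 at Lpin1, 2.06 at Asic5, 1.75 at Chn2, 1.61 at Sel1l3 and -0.95 at Slc22a7. Cyp4a14 did not pass, with 3.73 ± 0.37 at 3 h and a difference of 0.65 ± 0.52 (adjusted p = 0.544), nor did Car3, with -4.68 ± 0.40 at 3 h.

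Between 8 h and 16 h, when the mice passed from the dark into the light phase, the effect was higher at 16 h in 304 peaks (0.649%) and lower in 572 (1.22%). Of the 572 peaks 363 were opened at 8 h and 14 closed, and of the 304 peaks 205 were closed at 8 h and 7 opened. Here too the 8 h mice enter both the choice and the calls, and over all tested peaks 20.3% were opened and 13.7% closed. Peaks of lower effect had a median log2 fold change of 0.68 at 8 h and -0.46 at 16 h, and those of higher effect -0.65 at 8 h and 0.26 at 16 h, values that the choice of these peaks pulls apart. After centring the counts were 408 and 499. They too depend on single mice. The number higher was 127 and 817 without 16 h fasted mice 1 and 4, 199 and 170 without 16 h fed mice 2 and 4, 697, 140 and 183 without 8 h fasted mice 1, 2 and 4, and 178, 199 and 165 without 8 h fed mice 1, 2 and 3. The number lower was 338 and 1115 without 16 h fasted mice 1 and 4, 375 without 16 h fed mouse 2, 1083, 261 and 329 without 8 h fasted mice 1, 2 and 4, and 315 without 8 h fed mouse 3.

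Cyp7a1 was closed at 8 h and not at 16 h at its promoter, with 44.1 ± 12.9 in fasted and 44.8 ± 5.82 in fed mice at 16 h and a difference of 1.75 ± 0.25 (adjusted p = 4.74e-04). Nr1d1 had 171 ± 14.7 in fasted and 129 ± 11.3 in fed mice at 16 h, a difference of -1.02 ± 0.17 (adjusted p = 0.00150), and Ppargc1a 89.2 ± 38.5 in fasted and 62.3 ± 19.8 in fed mice, a difference of -1.20 ± 0.28 (adjusted p = 0.0191). At both peaks the mean fed level was higher at 16 h than at 8 h. The highest difference was at Srprb, a subunit of the signal recognition particle receptor (chr9:103207592-103207792), with 8.54, 1.41, 9.19 and 4.83 in fasted mice and 48.7, 55.7, 32.04 and 35.1 in fed mice at 8 h and 31.996 ± 15.0 in fasted and 26.0 ± 6.0005 in fed mice at 16 h, a difference of 2.82 ± 0.53 (adjusted p = 0.00405). A second Angptl8 peak, which overlaps the one named above, Gzmm and Unkl followed, with differences of 2.28 ± 0.62 (adjusted p = 0.0435), 2.06 ± 0.43 (adjusted p = 0.00773) and 2.001 ± 0.44 (adjusted p = 0.0127).

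The lowest differences lay at peaks that were closed at 16 h. Near Lrrc10 (chr10:117025864-117026064) the level was 130.2, 123, 110.3 and 148 in fasted mice and 98.2, 107, 104 and 107 in fed mice at 8 h and 23.4 ± 35.6 in fasted and 88.7 ± 7.37 in fed mice at 16 h, a difference of -3.01 ± 0.64 (adjusted p = 0.00892). Near Anxa3 (chr5:96847208-96847408) it was 12.8, 46.6, 20.7 and 46.2 in fasted mice and 30.3, 26.9, 30.0 and 27.4 in fed mice at 8 h and 0.912 ± 0.718 in fasted and 20.9 ± 3.56 in fed mice at 16 h, a difference of -2.96 ± 0.47 (adjusted p = 7.48e-04). At Bc1 (chr10:80368118-80368318) it was 32.7, 105, 30.5 and 123 in fasted mice and 78.9, 95.6, 91.3 and 76.8 in fed mice at 8 h, a difference of -2.70 ± 0.42 (adjusted p = 6.92e-04). At a peak 36218 bp upstream of Alb, the albumin gene (chr5:90424552-90424752), it was 4.27, 35.3, 7.47 and 65.5 in fasted mice and 6.43, 6.50, 6.27 and 4.17 in fed mice at 8 h, a difference of -2.79 ± 0.70 (adjusted p = 0.0297). As at Ddit4, fasted mice 2 and 4 were above fasted mice 1 and 3 at the peaks of Anxa3, Bc1 and Alb.

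**Figure D5:**
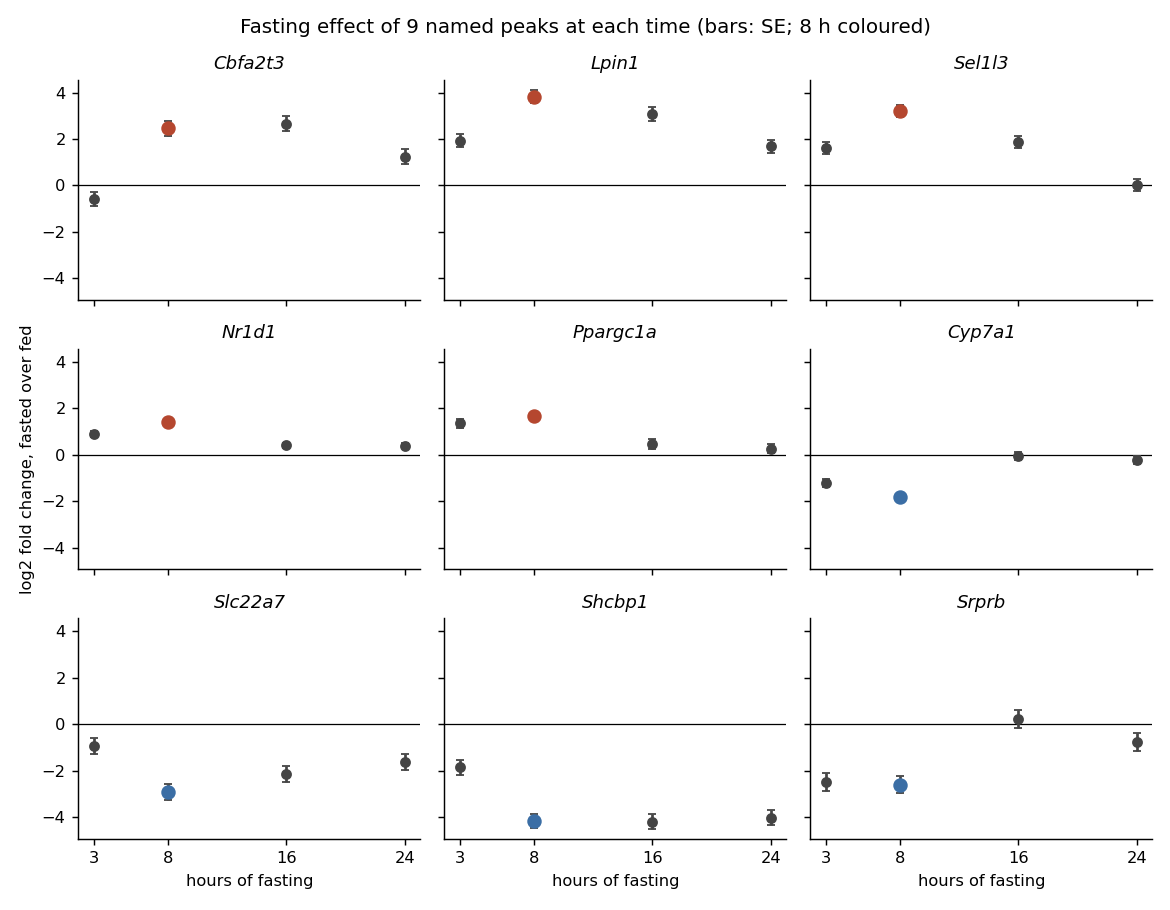
Log2 fold change ± SE of fasted over fed mice after 3, 8, 16 and 24 h at 9 named peaks, with the 8 h value in colour; the peaks were chosen for their 8 h effect or for its difference from another time. Cbfa2t3 stands at -0.60 after 3 h and 2.46 after 8 h, and Cyp7a1 at -1.81 after 8 h and -0.06 after 16 h.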

How the data were processed

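Hepatocyte nuclei were isolated by INTACT and profiled by ATAC-seq with paired-end reads, per the labels' protocols. BWA 0.7.5a-r405, SAMtools, HOMER, DESeq2 and the build mm10 are named in the submitters' processing notes, without a role or settings. The deposited signal is the number of reads in each merged peak of each library divided by 1 factor per library by the authors. Each deposited value came out as a whole number of reads once the size of 1 read in its library was known, within a tolerance of 0.01 reads. The deposited table also holds, per the file headers, the authors' log2 fold change and adjusted p-value for each time, with the method of adjustment not given in the sources used here.

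A peak was tested where it averaged 10 or more normalized reads over the 32 hepatocyte libraries, as 46827 of 46832 did, and 3985 of them overlap another tested peak. Values were taken as log2(normalized reads + 2) and fitted as 8 group means with limma 3.58.1 in R 4.3.3, with a trend in the prior variance and Benjamini-Hochberg adjustment over all tested peaks (two-sided, threshold 0.05). Contrasts were fasted minus fed at 8 h, and the difference of that effect from the effects at 3 h and 16 h, which share the 8 h mice. The share of reads in promoter peaks was tested by exact permutation over mice. Alternatives were edgeR 4.0.16 and DESeq2 1.42.0 on the recovered reads, other scalings, offsets and filters, a block on sets of library numbers, and leaving out each mouse. The fits were tested on simulated data.

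A floor of 3 reads corresponded to 1.72 to 4.24 normalized reads in the 8 h fasted and 1.79 to 2.79 in the 8 h fed libraries. Any 2 libraries had the same number of reads in at most 3.43% of the peaks, so none was counted as a copy.

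The members, gene lists and motifs were chosen with earlier results of these data known. Named in the text are the 10 largest rises and 10 largest falls without overlap, up to 2 peaks of smallest p from each list, and the 4 highest and 4 lowest peaks of each difference between times, 1 peak per gene. The named loci are the 5 genes with the most opened, the 5 with the most closed and the 5 with the most evenly split peaks within 100 kb. Predicted genes are passed over in the text. Promoter windows are RefSeq's, on GRCm38.p6, and genes that have none there are named only. The other libraries of the series were not used here. Some genes that these rules name are not reported here.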

Additional observations from a re-analysis of the deposited data

Results flagged for a closer look

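In 8 of 152 groups of 4 mice at the named peaks 1 mouse stood apart from the other 3, where chance gives about 1 group in 20. The measure is the gap to the nearest other mouse as a share of the group's range. Among fasted 8 h mice it was 0.941 at Rxra, where mouse 4 was high, 0.853 at the Mt2 peak 60 bp from the TSS, where mouse 3 was low, and 0.834 at Bnip3, where mouse 1 was high. Among fed 8 h mice it was 0.832 at Car3, 0.834 at Slc22a5, 0.859 at Irf1, 0.897 at Ccnl1 and 0.901 at Alb. The mouse apart was mouse 4 at Car3, mouse 3 at Slc22a5, mouse 2 at Irf1, mouse 3 at Ccnl1 and mouse 4 at Alb.

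The fasting effect at 8 h minus that at 3 h, on the log2 scale and with an adjusted p under 0.05 in limma, was 3.05 at Cbfa2t3, 2.57 at G0s2, 2.57 at Ccnl1, 1.89 at Lpin1, 1.75 at Asic5, 1.63 at Chn2 and 1.59 at Sel1l3. It was -1.98 at Slc22a7, -2.30 at Shcbp1 and -2.33 at Tmtc4. The effect at 16 h minus that at 8 h was 2.82 at Srprb, 2.05 and 2.28 at the 2 overlapping Angptl8 peaks, 2.06 at Gzmm and 2.001 at Unkl. It was -1.35 at Sel1l3, -2.07 at Ddit4, -2.70 at Bc1, -2.79 at Alb, -2.96 at Anxa3 and -3.01 at Lrrc10. The calls between 16 h and 8 h were lost under 14 settings at Ddit4, 13 at Sel1l3, 11 at Angptl8 (2591 bp), 7 at Angptl8 (2416 bp) and 7 at Alb.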

How the results depend on the processing

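The counts of opened and closed peaks at 8 h kept within 1.5 times of their values under every scaling, offset, filter and count model run, and leaving out 1 mouse gave 7519 to 9473 opened and 5534 to 6301 closed peaks. Restricting the test to promoter peaks left 2866 opened and 658 closed, and asking for a 2-fold change left 1958 and 2013, since both settings keep fewer peaks. Counts of differing effects moved more. For 8 h minus 3 h, leaving out 1 mouse gave 356 to 880 higher and 247 to 540 lower peaks, and the lower peaks numbered 901 in edgeR and 793 after quantile normalization; the cause was not tested. For 16 h minus 8 h, leaving out 1 mouse gave 127 to 817 higher and 261 to 1115 lower peaks. The p of the promoter share stayed above the threshold without any 1 mouse, with differences of 0.707 to 1.42 percentage points, and was 0.914 points (exact permutation p = 0.229) within 500 bp. Of the 8 h calls at named peaks 1198 settings were unchanged and 1 was lost, Nags without fed mouse 3. Of the differences between times at named peaks 1060 settings were unchanged, 55 lost the threshold and 7 gained it. List counts moved by over 1.5 times in 36 of 138 settings. No paired analysis was possible because the labels carry no replicate numbers; with sets of library numbers as a block, 9519 peaks were opened and 6453 closed. Depth limits the folds of peaks near the floor of 3 reads, such as Car3 and Csmd1 in fasted mice.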
